A study of Mus musculus with 4 samples.

Results

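Plaur+ spermatogonia of the busulfan-treated mouse testis were 453 of the 2898 spermatogonia that passed the gate in 2 single-cell libraries, out of 9229 deposited cells in the series. They were chosen from the measured counts. A cell entered the gate with over 1000 genes detected, under 20% of its unique molecular identifiers (UMIs, counts of single captured molecules) from mitochondrial genes and at least 1 UMI of the germ cell genes Ddx4 or Dazl. It also had low Kit, with ln(1 + 100000 × Kit share of UMIs) not above 3, and under 0.5% of UMIs from Ldhc, Meig1, Crisp2, Acrv1 and Spink2, which later germ cells express. Gated cells with at least 1 Plaur UMI are called Plaur+ and the others Plaur-negative. These genes and Plaur therefore carry no finding here and were left out of the tests between Plaur+ and Plaur-negative cells.

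The cells came from adult C57BL/6J mice aged 6 to 8 weeks and were sorted as E-cadherin+, CD49f+ (α6-integrin+) and c-KIT-negative, the surface pattern of undifferentiated spermatogonia (A_undiff). BU mice had received a single dose of 10 mg/kg busulfan, an alkylating drug that kills spermatogonia, A_undiff among them, and were taken at day 10 (D10). CTRL mice were untreated. The study ran 2 experiments, in each of which cells of 3 CTRL mice and of 3 BU mice were pooled into a library apiece, so single mice cannot be told apart. For BU 1 the files held 2090 cells with 21136369 UMIs and for BU 2 1859 cells with 53579969 UMIs. CTRL 1 had 3261 cells with 26802228 UMIs and CTRL 2 had 2019 cells with 39904588 UMIs.

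Plaur encodes uPAR, the receptor that binds urokinase, the plasminogen activator encoded by Plau, at the cell surface. Urokinase cuts plasminogen into plasmin, a protease that opens the extracellular matrix, and the receptor also acts with integrins in adhesion and migration. A_undiff hold the spermatogonial stem cells, which carry the GDNF receptor GFRα1, and the progenitors they form. Progenitors switch on Neurog3, Sox3 and Rarg and later respond to retinoic acid by expressing Stra8 and Kit.

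Features of the libraries bear on every value. Experiment 1 was made with version 2 of the droplet kit and experiment 2 with version 3.1 according to the labels, while the study's methods name the earlier version alone, and gated cells held a median of 8046 (CTRL 1) and 9918 (BU 1) UMIs in the first and of 32282 (CTRL 2) and 35538.5 (BU 2) in the second. CTRL 2 and BU 2 shared 677 cell barcodes, against 11 between CTRL 1 and BU 1, 1 between CTRL 2 and BU 1 and 0 between the other pairs. Among gated cells 424 of BU 2, 154 of its Plaur+ cells among them, had a barcode found in another library. These 424 cells held a median of 53475 UMIs and the other gated cells of BU 2 27692. A barcode can appear in both libraries when reads of 1 are assigned to the other, and whether some Plaur UMIs of CTRL 2 or BU 2 belong to the other library was not resolved. Main counts and shares are therefore also given without these cells.

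The label of the cells was checked against markers. At a common depth of 5000 UMIs per cell, Zbtb16, which encodes the A_undiff factor PLZF, was found in 52.8% of Plaur+ cells of BU 1 (n = 176) and 35.4% of BU 2 (n = 274), and in 59.2% and 41.6% of the Plaur-negative cells (n = 1650 and 721). Sall4 was found in 48.9% and 31.4% of Plaur+ cells and in 43.0% and 32.7% of Plaur-negative cells. Cdh1, the E-cadherin gene of the sort, was low, at 5.52 CPM (UMIs of a gene per 1000000 UMIs of the summed cells, with the sum scaled by the TMM factor of edgeR) in Plaur+ cells of BU 1 and 5.80 in BU 2. UMIs of Zbtb16 and Sall4 were therefore found whether or not Plaur was detected. No background share of these genes was taken from cells outside the gate.

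Plaur lies on the plus strand of chromosome 7 at 24462484 to 24475968 (GRCm38, GENCODE M21). The 150 bases before its start site, chr7:24462333-24462482 in RefSeq's GRCm38.p6 promoter, are shown because they hold the letters TGANTCA, the motif bound by AP-1 (FOS and JUN dimers), whose genes are described below. The capitals mark the match, which covers bases 69 to 63 before the start.
Plaur: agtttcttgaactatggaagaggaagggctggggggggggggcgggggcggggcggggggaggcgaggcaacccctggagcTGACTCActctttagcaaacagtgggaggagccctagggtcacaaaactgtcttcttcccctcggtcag
TGANTCA is its own reverse complement, so 1 strand covers both, and 7.81% of all 32851 RefSeq mouse promoters of the same length (250 bases before to 50 after the start) held it. A match is a description of these letters, not evidence of binding.

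Cells with a Plaur UMI were found in every library and were most frequent in BU. Of gated cells in BU 1 they made up 9.47% (178 of 1880, exact binomial 95% interval 8.18 to 10.9%) and of those in BU 2 27.0% (275 of 1018, 24.3 to 29.9%). The share was 0.593% for CTRL 1 (18 of 3033, 0.352 to 0.936%) and 2.77% for CTRL 2 (25 of 903, 1.80 to 4.06%). The groups did not overlap, and within each group the library of experiment 2, whose cells held more UMIs, had the larger share. With cells thinned to 5000 UMIs, which left out 54 shallower gated cells of BU 1, 23 of BU 2, 259 of CTRL 1 and 40 of CTRL 2, they made up 4.93% of BU 1 and 6.23% of BU 2, with CTRL 1 at 0.252% and CTRL 2 at 0.463% (exact binomial 95% intervals 3.98 to 6.02% for BU 1 and 4.81 to 7.92% for BU 2, which overlap). Over all gated cells, without TMM scaling, Plaur reached 12.7 CPM in BU 1 and 15.8 in BU 2, where the CTRL libraries of experiments 1 and 2 had 0.777 and 0.868 CPM. Since Plaur chose the members, these shares are a description. An exact permutation test of 2 against 2 libraries gave p = 0.333 (two-sided), the lowest value it can reach, so it decides nothing here. Without the shared barcodes the share was 20.4% in BU 2 (121 of 594) and 2.48% in CTRL 2 (19 of 765).

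**Figure D1:**
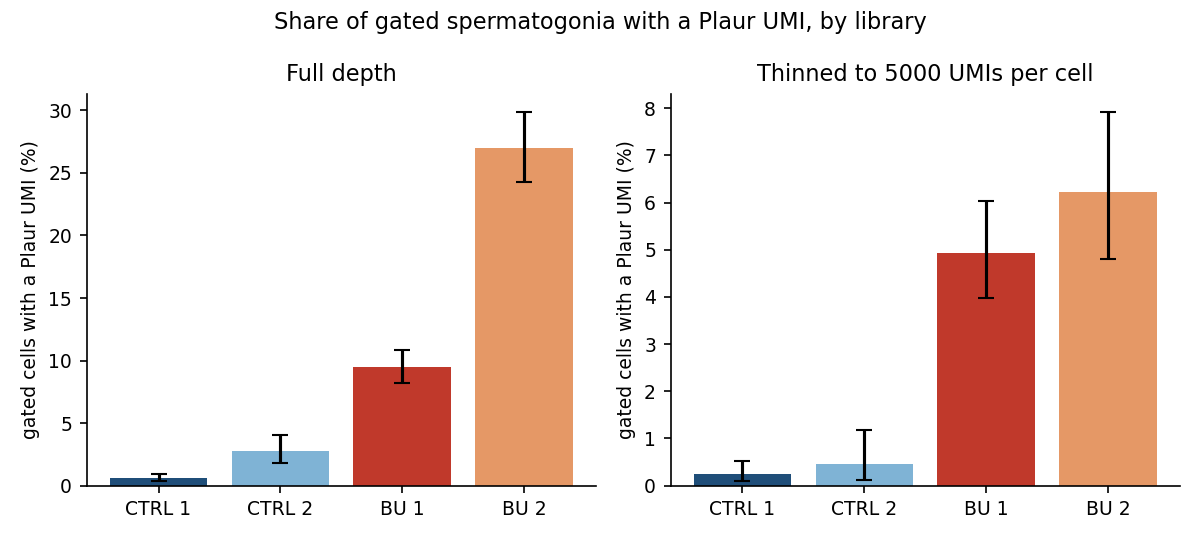
Share of gated cells with a Plaur UMI (percent, y axis) in each of the 4 libraries (x axis), at full depth on the left and with each cell of at least 5000 UMIs thinned to 5000 on the right; bars are the share and error bars the exact binomial 95% interval. Full-depth shares were 0.593, 2.77, 9.47 and 27.0% and thinned shares 0.252, 0.463, 4.93 and 6.23%, so the step between BU 1 and BU 2 nearly closes at equal depth and the step from CTRL to BU does not.

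Free RNA in the droplets can place UMIs in cells that do not express a gene, so Plaur was also counted in the cells of the same libraries that the gate removed. Among late germ cells a Plaur UMI was found in 0 of 13 in BU 1 and 4 of 120 in BU 2 (3.33%, 0.916 to 8.31%), at median depths of 16091 and 32827.5 UMIs. At 5000 UMIs the count was 0 of 11 in BU 1 and 0 of 76 in BU 2, which allows a share of up to 3.95% in BU 2. Kit-high germ cells, the step after A_undiff, had a Plaur UMI at that depth in 1 of 88 cells in BU 1 (1.14%) and 0 of 39 in BU 2, which allows up to 7.69%. The shares in gated BU cells were above each of these shares, but at 5000 UMIs the intervals of the Kit-high cells of both libraries and of late germ cells of BU 1 reached them. At full depth the interval of late germ cells of BU 1 reached them too. Those of Kit-high cells did not, at 1.10% in BU 1 (up to 5.97%) and 2.5% in BU 2 (up to 13.2%).

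Most members were chosen by few molecules. In BU 1, 137 of 178 Plaur+ cells (77.0%) held 1 Plaur UMI, 22 held 2 and 19 held 3 or more, with up to 8 in a cell. In BU 2, 123 of 275 (44.7%) held 1, 61 held 2 and 91 held 3 or more, with up to 19. Among the CTRL cells 16 of 18 and 22 of 25 held 1 and none more than 2. Detection rose with depth, from 4.47% in the shallowest of 4 equal classes of BU 1 cells to 16.8% in the deepest and from 14.5% to 40.2% in BU 2. Plaur-negative cells therefore include cells in which Plaur was missed. Before matching, Plaur+ cells held a median of 11960 UMIs in BU 1 against 9805 in Plaur-negative cells, and 41519 against 33323 in BU 2. For the comparisons below equal numbers of Plaur+ and Plaur-negative cells were drawn in 20 bins of depth in each library. This kept 178 of 178 Plaur+ cells in BU 1 and 267 of 275 in BU 2, with median depths of 11960 against 11963 UMIs and 40896 against 40548. The medians of the mitochondrial share were 6.33% against 6.36% in BU 1 and 5.97% against 5.94% in BU 2.

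The main comparison asked how the transcriptome of Plaur+ BU cells differed from that of Plaur-negative BU cells of the same library. The UMIs of the matched cells were summed, and the sums were fitted in edgeR with the library as a block. By edgeR 15 of 20 tested stem-associated genes, 14 of 16 ERK genes and 12 of 16 immediate early genes were higher in Plaur+ cells. Lower were 8 of 10 progenitor genes and 5 of 7 genes of entry into differentiation. With DESeq2 these counts were 7, 6, 4, 5 and 2, in that order. Of 11088 genes tested, 1038 were higher (9.36%) and 824 lower (7.43%) in Plaur+ cells at an edgeR adjusted p under 0.05. Together these 1862 calls are 16.8% of all genes, and 1817 of them moved the same way in both libraries. Over all genes tested 3751 were higher and 3687 lower in both BU libraries. The calls were made on these 2 libraries, so their agreement is no replication. The number of calls depended on the method and on the libraries. DESeq2 called 166 (1.5%), every one of which edgeR also called. Without the library block edgeR called 0, with 398 genes at an unadjusted p under 0.05. Leaving out a BU library gave 444 (without BU 1) or 176 (without BU 2), matching also on a Gfra1 UMI 1058, and removing shared barcodes 1038. Higher and lower calls were 0.938% and 0.559% of genes with DESeq2, 2.59% and 1.58% without BU 1, 0.869% and 0.794% without BU 2, 5.80% and 3.76% matched on Gfra1 and 6.33% and 3.84% without shared barcodes, and the counts of the lists below in these settings stand against these shares. With a BU library left out, the BU side is a single pair of sums, and its spread is taken from the CTRL pairs alone. With the library as a block, level differences between libraries are taken out. In the main fit the p-values measure how far the difference between the 2 sums of a library varies between libraries of a group. That fit left 2 residual degrees of freedom. The p-values do not measure the spread between mice.

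Among called genes with a mean of at least 20 CPM and the same sign in both BU libraries, the 12 largest rises were Timp1, Nxph4, S100a6, Rhbdl3, Lmna, Dusp4, Chga, Cadm4, Prrx2, Fcer1g, Phlda1 and Hist1h1b, and DESeq2 called all 12. Timp1, an inhibitor of matrix metalloproteinases (chromosome X, 20870166 to 20874735), stood at 41.8 CPM in Plaur+ and 13.3 in Plaur-negative cells of BU 1 and at 32.5 and 8.72 in BU 2. Its log2 fold was 1.83 ± 0.18 (SE, edgeR adjusted p = 2.24e-22). S100a6, a calcium-binding protein of motile cells (chromosome 3, 90612882 to 90624181), stood at 106 and 30.2 CPM in BU 1 and 133 and 45.5 in BU 2, a log2 fold of 1.6 ± 0.10 (edgeR adjusted p = 3.64e-51). For both genes each Plaur+ sum was above each Plaur-negative sum. The 12 rises were picked from these same sums, so this describes them and adds no support to the calls. Lmna, which encodes the lamins A and C of the nuclear envelope, stood at 109.9 and 38.5 CPM in BU 1 and 84.7 and 31.0 in BU 2 (log2 fold 1.47 ± 0.11, edgeR adjusted p = 9.74e-40). Prrx2, a paired-type homeobox factor, stood at 172 and 71.9 CPM in BU 1 and 139 and 49.8 in BU 2 (log2 fold 1.41 ± 0.09). Chga, chromogranin A of secretory granules, stood at 109.9 and 44.4 CPM in BU 1 and 103 and 36.9 in BU 2 (log2 fold 1.43 ± 0.10). For these 3 genes too both Plaur+ sums were above both Plaur-negative sums. Nxph4, a secreted neurexophilin, stood at 31.7 and 3.66 CPM in BU 1 and 49.1 and 17.7 in BU 2, a larger ratio in BU 1. The other rises of the 12 had log2 folds of 1.36 (Hist1h1b, a linker histone) to 1.51 (Rhbdl3). Without BU 2 Dusp4 missed the threshold at nearly the same log2 fold (1.39 from 1.45, edgeR adjusted p = 0.180), while the log2 fold of Hist1h1b was 0.76 there (edgeR adjusted p = 0.150) and 0.27 with the sums thinned (edgeR adjusted p = 0.897).

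By the same rule the 12 largest falls were Stra8, Cited1, Sox3, Lmo1, Tet3, Ptcra, Crabp1, Crip2, Galnt12, Rab11fip4, Trnp1 and Lonrf3, and DESeq2 called all but Lonrf3 (DESeq2 adjusted p = 0.0501). Some genes of lower level, such as Junb and Upp1 described below, changed more. Stra8, which retinoic acid induces and meiosis requires (chromosome 6, 34920163 to 34939344), stood at 42.8 CPM in Plaur+ and 164 in Plaur-negative cells of BU 1 and at 43.5 and 139 in BU 2. Its log2 fold was -1.75 ± 0.10 (edgeR adjusted p = 1.55e-66). Crabp1, a cytosolic binding protein of retinoic acid, stood at 59.8 and 192 CPM in BU 1 and 110.0 and 229 in BU 2 (log2 fold -1.23 ± 0.09). Tet3, an enzyme that oxidises 5-methylcytosine, stood at 13.3 and 38.5 CPM in BU 1 and 13.5 and 37.0 in BU 2 (log2 fold -1.47 ± 0.15). In each of these 3 genes both Plaur+ sums were below both Plaur-negative sums, which again only describes genes picked from these sums. Lmo1, a LIM-domain cofactor of transcription, stood at 13.8 and 60.5 CPM in BU 1 and 22.8 and 60.2 in BU 2 (log2 fold -1.54 ± 0.12). Cited1, a coregulator of transcription, stood at 14.3 and 77.0 CPM in BU 1 and 28.6 and 76.8 in BU 2 (log2 fold -1.61 ± 0.12). The Plaur-negative cells of the 2 libraries were thus nearly level for these 2 genes, and the Plaur+ cells of BU 1 stood lower than those of BU 2. Ptcra missed the threshold without BU 2, though its log2 fold was further from 0 there (-2.02 from -1.46). It also missed it without the shared barcodes (log2 fold -0.55, edgeR adjusted p = 0.0659).

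**Figure D2:**
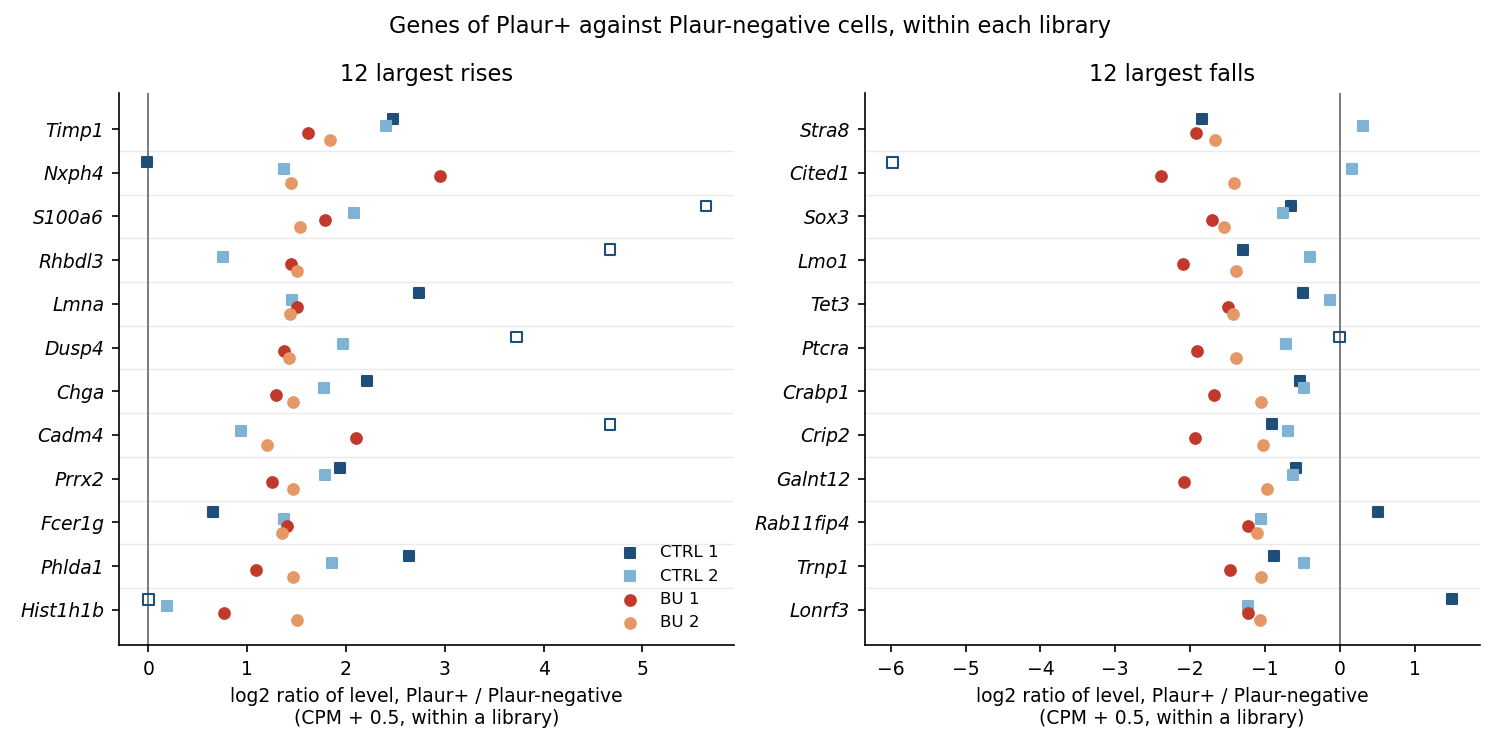
Log2 ratio of the level in Plaur+ to that in Plaur-negative cells within each library (x axis, CPM of the matched sums with 0.5 added) for the 12 largest rises on the left and the 12 largest falls on the right (y axis, gene). Circles are BU libraries and squares CTRL libraries, and open symbols mark ratios in which 1 or both sums held 0 UMIs. All BU points lie on 1 side of 0 because the genes were chosen that way, and 10 of the 12 rises and 7 of the 12 falls lie on the same side in both CTRL libraries.

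Stem-associated genes were higher as a group. Of the 22 listed, 20 were tested, 15 were higher (75%, against 9.36% of all genes) and 0 lower, with a median log2 fold of 0.64 against -0.01 for all genes tested. Lhx1, a LIM homeobox factor that GDNF induces in stem cells, stood at 154 and 48.1 CPM in BU 1 and 177 and 74.8 in BU 2 (log2 fold 1.35 ± 0.09, edgeR adjusted p = 4.19e-45). Eomes, a T-box factor found in a subset of GFRα1+ cells, stood at 51.0 and 16.0 CPM in BU 1 and 37.0 and 15.7 in BU 2 (log2 fold 1.34 ± 0.15). Nefm, a neurofilament subunit, stood at 286 and 124 CPM in BU 1 and 474 and 219 in BU 2 (log2 fold 1.14 ± 0.09). Gfra1 itself rose less, with 118 and 75.6 CPM in BU 1 and 116 and 71.2 in BU 2 (log2 fold 0.69 ± 0.09), and it was not called by DESeq2 (DESeq2 adjusted p = 0.212) or without BU 2 (edgeR adjusted p = 0.183). Etv5, an ETS factor downstream of GDNF and FGF, had a log2 fold of 0.53 ± 0.11, and Bcl6b, which GDNF also induces, one of 1.09 ± 0.12. Etv5 was not called by DESeq2 (DESeq2 adjusted p = 0.317), and edgeR lost it without BU 1, without BU 2 and matched on Gfra1 (edgeR adjusted p = 0.0522, 0.100 and 0.0553). Bcl6b was lost without BU 2 (edgeR adjusted p = 0.0770). Egr3 was at 0 in both BU 1 sums and was called from BU 2 alone (27.0 and 10.5 CPM). The 5 tested members that did not pass were Pdx1, Nanos2, Egr4, Pax7 and Sdc4, with log2 folds of 0.15 to 0.57. DESeq2 called 7 of the 20 (35%, against 0.938% of all genes), and edgeR 6 of 19 without BU 2 (31.6%, against 0.869%). With cells matched on Gfra1 as well as depth 12 of 20 were higher (60.0%, against 5.80%) and 0 lower, where Gfra1 itself did not pass (edgeR adjusted p = 0.0591), and without shared barcodes 13 of 19 were higher (68.4%, against 6.33%).

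At 5000 UMIs per cell the same pattern was seen as shares of cells. Gfra1 was found in 47.7% of Plaur+ cells of BU 1 (40.2 to 55.4%, n = 176) and 29.9% of Plaur-negative cells (27.7 to 32.2%, n = 1650). In BU 2 it was found in 38.0% (32.2 to 44.0%, n = 274) and 26.8% (23.6 to 30.2%, n = 721). Eomes was found in 21% against 7.94% in BU 1 and 16.4% against 6.38% in BU 2. Epcam, an epithelial adhesion molecule of spermatogonia, was found in 81.8% against 66.9% and in 82.8% against 73.6%. The intervals of Plaur+ and Plaur-negative cells did not overlap for any of the 3 genes in either library, but they cover counting error only. Without the shared barcodes the intervals of all 3 overlapped in BU 2 (n = 120 and 461). There Gfra1 was found in 31.7% against 25.2%, Eomes in 15% against 6.51% and Epcam in 85.8% against 74.6%, while the shares of BU 1 barely moved (Gfra1 47.4% against 29.9%). When Plaur+ cells were called after thinning, on 90 cells of BU 1 and 62 of BU 2, Gfra1 was found in 46.7% and 46.8% of them and Eomes in 21.1% and 11.3%, and the Eomes intervals of BU 2 then overlapped (4.66 to 21.9% against 7.24 to 11%). At full depth, in equal numbers per depth bin, Gfra1 was found in 68.5% of Plaur+ and 48.3% of Plaur-negative cells of BU 1 and in 89.9% and 72.7% of BU 2, so a cell without a Gfra1 UMI at 5000 UMIs need not lack the transcript. Among the thinned cells with a Gfra1 UMI 7.27% in BU 1 and 9.76% in BU 2 had a Plaur UMI, against 3.85% and 4.73% of those without.

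**Figure D3:**
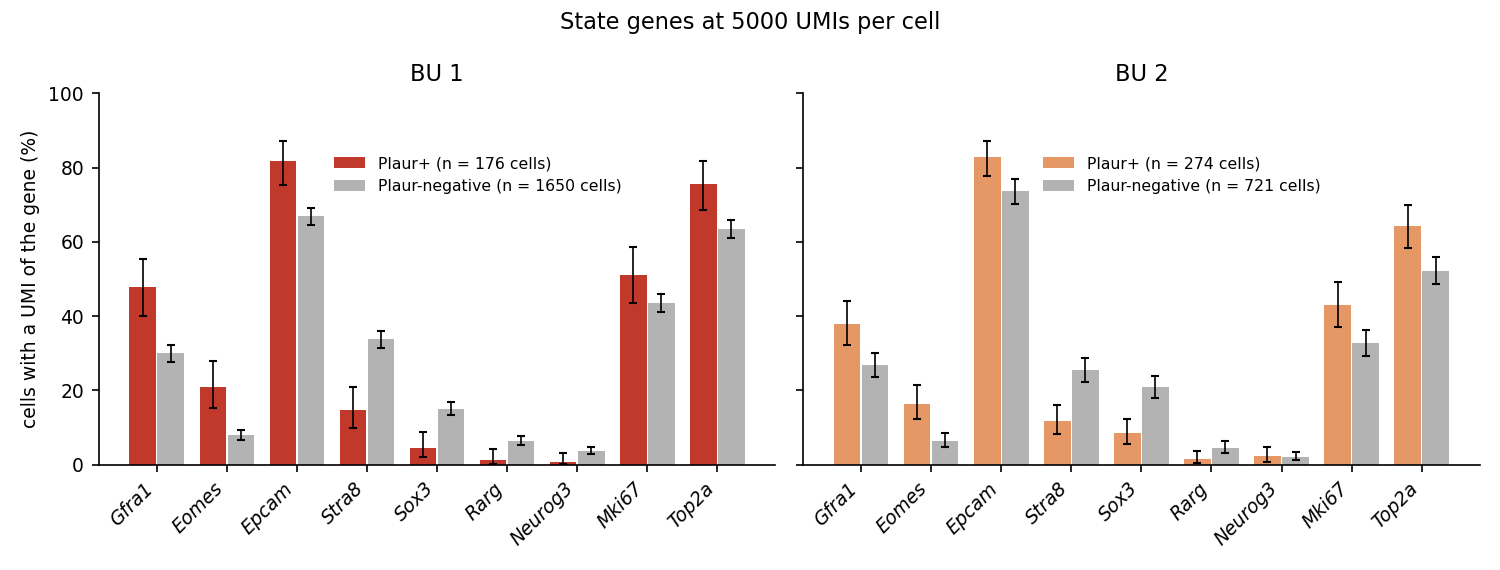
Share of cells with a UMI of 9 state genes (percent, y axis) in Plaur+ (coloured) and Plaur-negative cells (grey) of BU 1 and BU 2, each cell thinned to 5000 UMIs; error bars are exact binomial 95% intervals, which cover counting error only. Gfra1, Eomes and Epcam stand higher and Stra8, Sox3 and Rarg lower in Plaur+ cells of both libraries.

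Progenitor genes were lower as a group. All 10 listed were tested, 8 were lower (80.0%, against 7.43% of all genes) and 0 higher, with a median log2 fold of -0.95. Upp1, uridine phosphorylase, stood at 1.84 and 16.9 CPM in BU 1 and 3.27 and 15.5 in BU 2 (log2 fold -2.37 ± 0.25, edgeR adjusted p = 9.96e-20). Sox3, a progenitor factor of the SRY family, stood at 8.74 and 29.8 CPM in BU 1 and 21.7 and 64.4 in BU 2 (log2 fold -1.59 ± 0.13, edgeR adjusted p = 4.23e-32). Rarg, the retinoic acid receptor of progenitors, stood at 2.76 and 17.4 CPM in BU 1 and 4.25 and 9.49 in BU 2 (log2 fold -1.45 ± 0.27). Neurog3, a helix-loop-helix factor of progenitors, was low throughout, at 1.38 and 5.95 CPM in BU 1 and 2.37 and 7.18 in BU 2 (log2 fold -1.66 ± 0.35). Each of these 4 genes was lower in Plaur+ cells of both libraries, and DESeq2 called Upp1, Sox3 and Rarg but not Neurog3 (DESeq2 adjusted p = 0.188), which edgeR also lost without BU 1 or without BU 2 (edgeR adjusted p = 0.0925 and 0.564). Rarg was lost without BU 1 (edgeR adjusted p = 0.156). DESeq2 called 5 of the 10 genes. By edgeR 8 of 10 were lower with cells matched on Gfra1 and 8 of 10 without shared barcodes, but 4 of 10 without BU 1 and 4 of 10 without BU 2. A Sox3 UMI was found at 5000 UMIs in 4.55% of Plaur+ and 15.0% of Plaur-negative cells of BU 1 and in 8.39% and 20.8% of BU 2 (7.5% and 16.7% without shared barcodes). The share with Neurog3 was 0.568% against 3.76% in BU 1 and 2.19% against 2.08% in BU 2.

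Genes of entry into differentiation followed the progenitor genes. Of 9 listed, 7 were tested, 5 were lower (71.4%, against 7.43% of all genes) and 0 higher, with a median log2 fold of -0.75. Beside Stra8, Esx1, an X-linked homeobox factor, stood at 4.60 and 26.6 CPM in BU 1 and 16.0 and 32.3 in BU 2 (log2 fold -1.22 ± 0.17). Dnmt3b, a de novo DNA methyltransferase that rises as spermatogonia differentiate, stood at 38.2 and 97.6 CPM in BU 1 and 31.2 and 59.5 in BU 2 (log2 fold -1.05 ± 0.11). Dmrtb1, which acts at the switch to meiosis, stood at 14.7 and 26.1 CPM in BU 1 and 23.9 and 39.7 in BU 2 (log2 fold -0.75 ± 0.15). All of these were lower in Plaur+ cells of each library, and DESeq2 called only Stra8 and Dnmt3b of the list. Without shared barcodes 5 of 7 were lower. Matched on Gfra1 the count was 4 of 7 with a median log2 fold of -0.36, and Dmrtb1 was lost (edgeR adjusted p = 0.204). Without BU 2 the count was 3 of 7, and Dmrtb1 was again lost (edgeR adjusted p = 0.642). A Stra8 UMI was found at 5000 UMIs in 14.8% of Plaur+ and 33.8% of Plaur-negative cells of BU 1 and in 11.7% and 25.4% of BU 2 (9.17% and 20.8% without shared barcodes). Cells with a Gfra1 UMI and no Stra8 UMI made up 42.6% and 35.0% of Plaur+ cells and 21.8% and 21.5% of Plaur-negative cells. Cells with Stra8 and no Gfra1 made up 9.66% and 8.76% of Plaur+ cells and 25.6% and 20.1% of Plaur-negative cells. Cells with neither made up 42.6% against 44.5% in BU 1 and 53.3% against 53.1% in BU 2, Plaur+ cells first.

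A list of genes taken as marks of A_undiff as a whole had 9 tested members. Of these 3 were higher (33.3%, against 9.36% of all genes) and 3 lower (33.3%, against 7.43%), with a median log2 fold of -0.06. Leaving out either BU library left 1 higher and 1 lower. Zbtb16 was slightly lower (182 and 208 CPM in BU 1, 117 and 142 in BU 2, log2 fold -0.25 ± 0.09, edgeR adjusted p = 0.0272), a call lost with DESeq2 (DESeq2 adjusted p = 0.765), in another random draw (edgeR adjusted p = 0.0564), matched on the cell cycle (0.178), without BU 1 (0.492) and without BU 2 (0.904). Sall4 and Foxo1 had log2 folds of -0.06 and -0.23 and did not pass. Utf1 and Uchl1 were lower (log2 folds -1.0 ± 0.31 and -0.71 ± 0.10). Utf1 was lost with DESeq2 (DESeq2 adjusted p = 0.274), matched on Gfra1 or on the cell cycle (edgeR adjusted p = 0.0689 and 0.0852), without BU 1 (0.519) and without BU 2 (0.556). Epcam was higher, at 451 and 270 CPM in BU 1 and 484 and 337 in BU 2 (log2 fold 0.61 ± 0.09, edgeR adjusted p = 3.85e-10), but DESeq2 did not call it (DESeq2 adjusted p = 0.247). It is not a uniform mark of A_undiff. The study reported it high in proliferative stem cell clusters, raised on c-KIT+ cells and raised after busulfan. Taf4b was also higher (log2 fold 0.35 ± 0.10), a call lost with DESeq2 (DESeq2 adjusted p = 0.759).

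**Figure D4:**
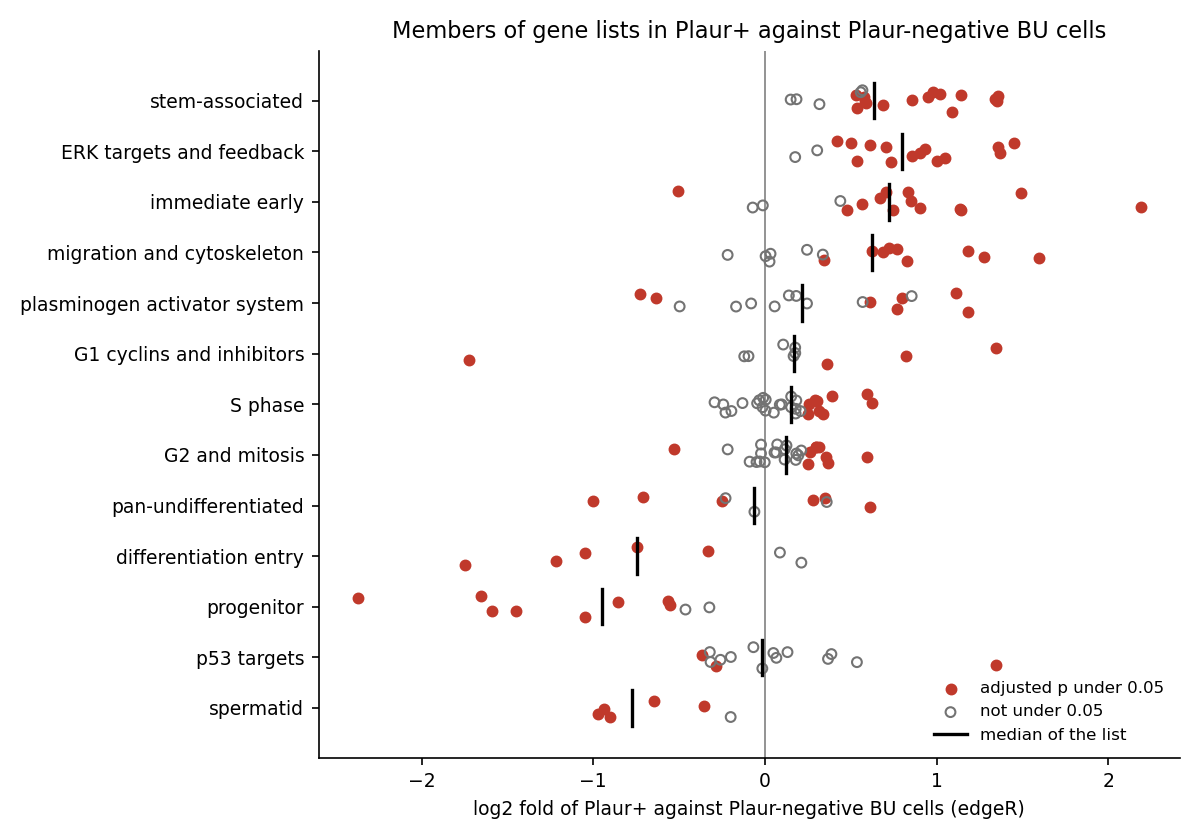
Log2 fold of Plaur+ against Plaur-negative BU cells (x axis, edgeR) for the tested members of 13 gene lists (y axis, vertical position within a list is random). Filled points passed an adjusted p of 0.05, open points did not, and the black line is the median of the list. Called members of the stem-associated and ERK lists lie at positive values and those of the progenitor and differentiation lists at negative values.

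Targets and feedback inhibitors of ERK, the kinase that GDNF and FGF activate in these cells, were higher. Of 19 listed, 16 were tested, 14 were higher (87.5%, against 9.36% of all genes) and 0 lower, with a median log2 fold of 0.80. Dusp6, a phosphatase that switches ERK off, stood at 198 and 104 CPM in BU 1 and 116 and 61.0 in BU 2 (log2 fold 0.93 ± 0.09, edgeR adjusted p = 1.87e-22). Phlda1 stood at 108 and 50.4 CPM in BU 1 and 89.7 and 32.1 in BU 2 (log2 fold 1.37 ± 0.10). Dusp4, a nuclear phosphatase of the same family as Dusp6, stood at 28.0 and 10.5 CPM in BU 1 and 37.0 and 13.4 in BU 2. Spry1, a Sprouty inhibitor of receptor tyrosine kinase signalling, had a log2 fold of 1.05 ± 0.14. DESeq2 called 6 of the 16, and leaving out a BU library left 11 of 16 (without BU 1) or 6 of 16 (without BU 2), each with 0 lower. With cells matched on Gfra1 13 of 17 were higher, and without shared barcodes 13 of 16. Spry1 was lost with DESeq2 (DESeq2 adjusted p = 0.108) and without BU 2 (edgeR adjusted p = 0.463).

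Immediate early genes, which serum, growth factors or stress switch on within minutes, were higher in part. Of 18 listed, 16 were tested, 12 were higher (75%, against 9.36% of all genes) and 1, Klf4, was lower (log2 fold -0.51), a call lost without BU 2 and without shared barcodes (edgeR adjusted p = 0.974 and 0.277). The median log2 fold was 0.73. Junb stood at 21.6 and 2.75 CPM in BU 1 and 24.3 and 5.79 in BU 2 (log2 fold 2.19 ± 0.22, edgeR adjusted p = 2.18e-20). With the sums thinned its log2 fold was 1.05 and the call was lost (edgeR adjusted p = 0.458). Fos stood at 57.9 and 22.4 CPM in BU 1 and 30.0 and 14.7 in BU 2 (log2 fold 1.13 ± 0.15), and Jun at 36.8 and 15.6 and at 29.3 and 13.6 (log2 fold 1.14 ± 0.17). Fosl1, a further AP-1 subunit, had a smaller difference (11.5 and 6.41 CPM in BU 1, 11.8 and 7.41 in BU 2, log2 fold 0.71 ± 0.25, edgeR adjusted p = 0.0305), and its call was lost in another random draw of cells (edgeR adjusted p = 0.123), matched on Gfra1 (0.116), under 10% mitochondrial UMIs (0.113), without BU 1 (0.623) and without BU 2 (0.952). The 4 genes encode subunits of AP-1, and each was higher in both Plaur+ sums than in either Plaur-negative sum. This describes the sums on which the calls were made and adds no support to them. Myc was called on few UMIs (2.76 and 2.75 CPM in BU 1, 3.67 and 0.926 in BU 2), and its sums in BU 1 were level. DESeq2 called 4 of the 16. edgeR called 8 of 15 higher without BU 1, 4 of 15 without BU 2, where Jun was lost (edgeR adjusted p = 0.192), and 10 of 15 without shared barcodes. Cell dissociation can itself switch on these genes, and its part in the difference was not tested.

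The AP-1 letters printed for Plaur were also looked for in the promoters of the 12 largest rises, of which 8 had a RefSeq entry. Lmna and Hist1h1b held them (2 of 8), against 1 of the 9 largest falls with an entry and 8.97% of all 27025 genes with a promoter in the table. The match of Lmna (RefSeq promoter chr3:88503303-88503602, minus strand) lies 40 to 46 bases after the start, and that of Hist1h1b (H1f5 in RefSeq, chr13:21780576-21780875, minus strand) lies 233 to 227 bases before it. Both are shown with up to 10 bases on either side, the match in capitals, to be read against the Plaur sequence above.
Lmna: tggctgtcagTGACTCAgtgt
Hist1h1b: cagttgcgcgTGATTCAaaaaagcaca
Plaur and Lmna held TGACTCA and Hist1h1b TGATTCA.

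Genes of migration and the cytoskeleton were higher in part. Of 22 listed, 15 were tested, 9 were higher (60.0%, against 9.36% of all genes) and 0 lower, with a median log2 fold of 0.62. The S100 proteins led, with S100a11 at 170.1 and 67.3 CPM in BU 1 and 173 and 72.6 in BU 2 (log2 fold 1.28 ± 0.09, edgeR adjusted p = 1.35e-41). S100a10, the partner of annexin A2 in a plasminogen receptor, stood at 53.8 and 23.8 CPM in BU 1 and 66.5 and 29.2 in BU 2 (log2 fold 1.18 ± 0.12), but DESeq2 did not call it (DESeq2 adjusted p = 0.132). Tagln2, an actin-binding protein, stood at 439 and 260.2 CPM in BU 1 and 405 and 221 in BU 2 (log2 fold 0.83 ± 0.09). The actin regulators Tmsb10 and Actn1 both had a log2 fold of 0.03 and did not pass. DESeq2 called 5 of the 15, as did edgeR without BU 2. With cells matched on Gfra1 7 of 17 were higher and 2 lower, and without shared barcodes 7 of 17 were higher and 1 lower.

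Genes of the plasminogen activator system, whose products work with uPAR, moved in both directions. Plau, its ligand, was at 0 in both BU 1 sums and at 0.245 and 0.0772 CPM in BU 2 and was not tested. Plat, the other plasminogen activator, stood at 12 and 14.7 CPM in BU 1 and 9.47 and 8.33 in BU 2 (log2 fold 0.06 ± 0.24, edgeR adjusted p = 0.917). Of 25 listed genes of the plasminogen activator system 16 were tested, 5 were higher (31.2%, against 9.36% of all genes) and 2 lower (12.5%, against 7.43%), with a median log2 fold of 0.21, and DESeq2 called 0. With cells matched on Gfra1 2 were higher and 2 lower, and without shared barcodes 3 of 15 were higher and 1 lower. Without BU 1 the counts were 2 and 0 of 15 and without BU 2 they were 2 and 1. The genes that were higher were S100a10, the integrin subunits Itgav (17.5 and 5.04 CPM in BU 1, 10.5 and 5.56 in BU 2) and Itgb5 (62.5 and 30.7, 43.0 and 26.2), the membrane protease gene St14 and the clearance receptor gene Lrp1. Itgav, St14 and Lrp1 were lost without BU 1 (log2 folds 0.91, 0.76 and 0.51) and without BU 2 (1.76, 0.81 and 1.22). St14 and Lrp1 were also lost in another random draw (edgeR adjusted p = 0.0942 and 0.0596) and without doublets (0.0591 and 0.0817). The same held under 10% mitochondrial UMIs (0.0910 and 0.440) and without shared barcodes (0.541 and 0.285). Matched on Gfra1, Itgav, St14 and Lrp1 were lost (0.0578, 0.270 and 0.523). The genes that were lower were the inhibitor Serpine2 (log2 fold -0.73) and Igf2r (-0.63), which also binds uPAR. Serpine2 was lost without BU 1 (edgeR adjusted p = 0.156) and matched on Gfra1 (0.109), and Igf2r without BU 1 (0.0542), without BU 2 (0.783) and without shared barcodes (0.0966).

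Part of the cell cycle genes were higher by small folds. Of 26 genes of G2 and mitosis 8 were higher (30.8%, against 9.36% of all genes) and 1 lower (median log2 fold 0.12), and of 29 genes of S phase 9 were higher (31.0%) and 0 lower (median 0.15). DESeq2 called 1 in each. Without BU 1, 1 of 25 G2 genes was higher (4%) and 2 of 29 S phase genes were (6.90%), against 2.59% of all genes, and without BU 2 the counts were 0 and 2, against 0.869%. Without shared barcodes 8 of 25 and 10 of 29 were higher. Mki67 stood at 213 and 174 CPM in BU 1 and 238 and 203 in BU 2 (log2 fold 0.25 ± 0.08, edgeR adjusted p = 0.0226), a call lost without shared barcodes (edgeR adjusted p = 0.184), at 2 or more Plaur UMIs (0.375), without BU 1 (0.639), without BU 2 (0.741) and with DESeq2 (1.0). At 5000 UMIs a Mki67 UMI was found in 51.1% of Plaur+ and 43.5% of Plaur-negative cells of BU 1 and in 43.1% and 32.7% of BU 2. When Plaur+ cells were called after thinning the shares were 46.7% against 44.1% in BU 1 and 29.0% against 36.0% in BU 2, so the direction differed between the libraries, and with the sums thinned in this way the log2 fold of Mki67 was -0.05. Cdk1 had the largest difference of the G2 and mitosis list (log2 fold 0.59 ± 0.09) but was lost without BU 2 (edgeR adjusted p = 0.233). Foxm1, a factor of the G2 programme, had a log2 fold of -0.02 ± 0.16.

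Of 10 tested G1 cyclins and inhibitors 3 were higher (30.0%, against 9.36% of all genes) and 1 lower (10.0%, against 7.43%). The median log2 fold of this list was 0.17. Cdkn1a, which encodes the cyclin-dependent kinase inhibitor p21, stood at 169 and 63.7 CPM in BU 1 and 183 and 73.2 in BU 2 (log2 fold 1.35 ± 0.09, edgeR adjusted p = 5.79e-46). Ccnd2, a D-type cyclin, stood at 1600.1 and 874 CPM in BU 1 and 1039 and 605 in BU 2 (log2 fold 0.82 ± 0.10, edgeR adjusted p = 2.49e-14). Cdk6, a kinase partner of D-type cyclins, was lower, at 1.38 and 21.5 CPM in BU 1 and 6.12 and 16.4 in BU 2 (log2 fold -1.73 ± 0.23). Cdkn1a, Ccnd2 and Cdk6 were also called by DESeq2. With the sums thinned Cdk6 lost its call (log2 fold -2.37, edgeR adjusted p = 0.219). Ccnd3, the remaining rise, had a log2 fold of 0.36 ± 0.09 (edgeR adjusted p = 0.00185). Its call was lost with DESeq2 (DESeq2 adjusted p = 0.549), without BU 1 (log2 fold 0.34) and without BU 2 (0.41). Cdkn1a is also a p53 target. Of 15 tested p53 targets 1, Cdkn1a, was higher (6.67%, against 9.36% of all genes) and 2, Trp53inp1 and Ccng1, were lower (13.3%, against 7.43%; log2 folds -0.37 and -0.28), with a median of -0.02. Ccng1 was lower in BU 1 (60.7 and 130.1 CPM) and level in BU 2 (116 and 114). Trp53inp1 was lost without shared barcodes (edgeR adjusted p = 0.177), without BU 1 (0.691), without BU 2 (0.0900) and with DESeq2 (0.666), which called 0 p53 targets lower. Of the 15 genes that the study named as raised after busulfan, a list chosen on these samples and so no independent evidence of its direction, 9 were higher (60.0%, against 9.36% of all genes) and 0 lower (median 0.27), and DESeq2 called 2, Eomes and Bcl6b. Without BU 1 the count was 3 (20%, against 2.59% of all genes) and without BU 2 it was 2 (13.3%, against 0.869%).

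Markers of other cell types were read beside these results. Fcer1g, the γ chain of Fc receptors, was among the 12 rises and is on the macrophage list. It made up 43.2 of the 46.4 CPM summed over the 12 listed macrophage genes in Plaur+ cells of BU 1 (16.0 of 18.3 in Plaur-negative cells) and 32.6 of 38.0 in BU 2 (12.4 of 14.4). Adgre1, C1qa, Cx3cr1 and Lyz2 were at 0 in Plaur+ cells of both libraries. Of the 12 listed genes 9 were at 0 in Plaur+ cells of BU 1 but only these 4 in BU 2, where the others had UMIs. Fcer1g was the only macrophage gene tested, so no direction is shown for the rest. Of the Sertoli list 5 of 8 were tested, 1 (Clu) was higher (20%, against 9.36% of all genes) and 1 (Wt1) lower (20%, against 7.43%). Wt1 was lost without BU 1 and without BU 2 (edgeR adjusted p = 0.845 and 0.741). The summed level was 61.6 and 50.4 CPM in BU 1 and 70.2 and 53 in BU 2, and the sign of Clu turned with another random draw of cells (log2 fold -0.03). Leydig markers summed to at most 2.93 CPM in these 4 sums, with Insl3 at 0 in Plaur+ cells of both libraries. Peritubular and endothelial markers summed to 10.6 and 16.5 CPM in BU 1 and 21.6 and 14.8 in BU 2, with Col1a1 the most abundant and Dcn at 0 in both Plaur+ sums.

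The difference in spermatid transcripts depended on the cells used. The 7 listed genes, led by the protamine gene Prm2, summed to 321 CPM in Plaur+ and 590.4 in Plaur-negative cells of BU 1 and to 909 and 1586 in BU 2, and 5 of 6 tested were lower (83.3%, against 7.43% of all genes, median log2 fold -0.77). Without shared barcodes 1 of 6 was lower (median -0.27), matched on the cell cycle 2 of 6 (median -0.18) and without BU 2 1 of 5. Their direction turned at 2 or more Plaur UMIs, where 5 of 5 tested were higher, and that of Prm2 also without the shared barcodes (log2 fold 0.21). Spermatocyte markers did not follow, with 0 of 4 tested called and Sycp1 at 236 and 237 CPM in BU 1 and 386 and 421 in BU 2. The part of spermatid RNA in the other differences was not tested. Doublets marked 1.69% of matched Plaur+ and 1.69% of Plaur-negative cells in BU 1 and 1.87% and 1.12% in BU 2, and removing them gave 1940 calls.

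For the genes given here the difference was already present in cells with a single Plaur UMI, the cells just inside the threshold. Levels over all UMIs of unmatched gated cells, without TMM scaling and read as a description, went from 0 to 1 to 2 or more Plaur UMIs as 43.3, 99.2 and 138 CPM for Lmna in BU 1 (1702, 137 and 41 cells) and as 30.2, 60.0 and 88.7 in BU 2 (743, 123 and 152 cells). Cdkn1a went from 79.1 to 149 to 222 CPM in BU 1 and from 65.3 to 115 to 203 in BU 2. Lhx1 went from 68.4 to 149 to 166 CPM and from 71.6 to 125 to 189. These 3 genes increased at each step in both libraries. Gfra1 went from 82.9 to 118 to 113 CPM in BU 1 and from 72.4 to 103 to 111 in BU 2, so most of its step lay between 0 and 1 UMI. Stra8 fell from 160.4 to 49.0 to 23.3 CPM and from 115 to 50.7 to 36.4. Sox3 went from 38.3 to 8.57 to 8.95 CPM and from 58.5 to 23.6 to 20.9.

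**Figure D5:**
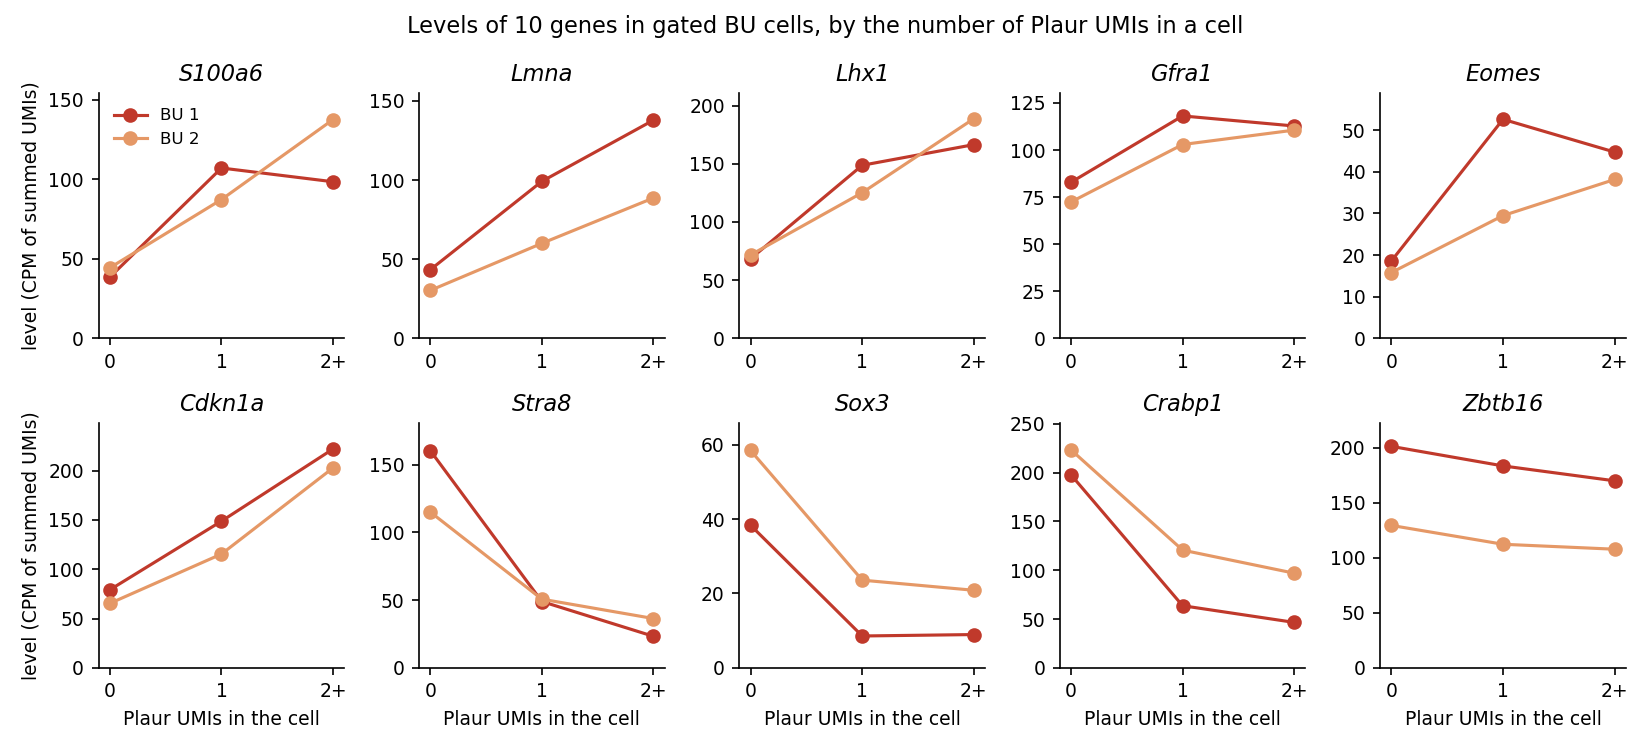
Level of 10 genes (y axis, CPM of the summed UMIs) in gated BU cells with 0, 1 and 2 or more Plaur UMIs (x axis), for BU 1 and BU 2, without error bars since each point is a single sum of cells. Lmna, Lhx1 and Cdkn1a stand higher at each step and Stra8 and Crabp1 lower, while Zbtb16 changes least.

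The CTRL libraries, whose own differences did not enter the choice of the 12 rises and 12 falls, held only 18 and 25 Plaur+ cells. Their sums held 149144 and 1332084 UMIs, so a single UMI in the CTRL 1 sum was a level of several CPM. Lmna stood at 85.8 CPM in Plaur+ and 12.4 in Plaur-negative cells of CTRL 1 and at 29.8 and 10.6 in CTRL 2. Timp1 stood at 36.8 and 6.19 CPM in CTRL 1 and 11.5 and 1.76 in CTRL 2, and Prrx2 at 49.0 and 12.4 and at 52.7 and 15.0. Sox3 stood at 55.1 and 86.7 CPM in CTRL 1 and 97.1 and 164 in CTRL 2. Of the 12 largest rises in BU, 10 were also higher in both CTRL libraries, where 21.8% of all genes tested were, and 7 of the 12 largest falls were lower in both, where 27.6% of all genes were. Without the shared barcodes the counts were 11 and 8, against 28.4% and 23.3% of all genes. Over all genes called in BU, 47.4% of the rises were higher and 45.1% of the falls lower in both CTRL libraries. edgeR called 140 genes in CTRL (1.26%; 0.685% higher and 0.577% lower in Plaur+ cells) and DESeq2 18, but without CTRL 2 only 1 gene passed, so no gene is named from that comparison.

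Whether the Plaur+ difference itself changed with busulfan was tested as the difference of the 2 contrasts. It passed for 48 genes (0.433%; 0.244% with a positive and 0.189% with a negative difference) with edgeR, 3 with DESeq2 and 1 without CTRL 2. Of 78 named genes, chosen largely by their BU difference, which enters this test, it passed for 9. A difference that did not pass is not shown to be absent. For Lmna the difference of the contrasts was -0.30 ± 0.45 (log2, SE), for Gfra1 -0.36 ± 0.30 and for Dusp6 -0.05 ± 0.29.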

How the data were processed

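Single-cell RNA libraries of sorted A_undiff were analysed from the UMI count matrices that the authors deposited (droplet 3' libraries, Cell Ranger 3.0.2 per the file headers, mm10 per the study's methods, while the submitters' processing notes name GRCm39). Their notes also name Seurat 3.2, whose output was not used here. The deposited counts are whole UMIs per gene and cell and are not normalized. Tables of experiment 1 list 27998 genes and those of experiment 2 31053, and the 27514 in all 4 libraries were used. Groups came from the labels. Each library pools 3 mice. The p-values measure how the within-library difference varies between libraries, not the spread of levels between libraries or between mice. The members and the gene lists were chosen with earlier results of these data known.

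Cells were gated as described. Scrublet scores (scanpy 1.11.5) marked 132 cells (1.76%) as doublets at 0.8% per 1000 cells, and these were kept. Shares were computed after thinning each cell to 5000 UMIs and leaving out shallower cells, with exact binomial (Clopper-Pearson) 95% intervals that cover counting error only. A count of 0 allows 3 counts. Depth-matched cells were summed into 8 sums, Plaur+ and Plaur-negative in each library, and tested with edgeR 4.0.16 (quasi-likelihood, TMM, filterByExpr, library as block, Benjamini-Hochberg adjusted p under 0.05). Sums held 149144 UMIs to 13243570 UMIs. CPM were computed per 1000000 UMIs of a sum scaled by its TMM factor, with no correction for gene length, since 3' tags were counted, and levels were compared within genes. The block follows from the design, since both sums of a library come from the same library and pool of mice, though from different cells, and deviations of the 2 sums correlated (r = 0.756 in BU and 0.326 in CTRL over 11088 genes). Counts for the BU comparison were also simulated from the fitted model with its own dispersion. In these 200 of 11088 genes were changed, all of them above a minimum fitted count in BU. Of genes changed by 1 on the log2 scale 94% were recovered and of those changed by 0.5 62%, and 3.70% of 162 calls were false. These rates hold under the model and for such genes, and are no measure of false calls in the real data or of recovery at low counts.

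Genes were named by a rule: the 12 largest rises and 12 largest falls among called genes with the same sign in both BU libraries and a mean of at least 20 CPM, a set of chosen genes, and up to 4 called members of each list. Other list members were named after their values were seen. Alternatives were DESeq2 1.42.0, other scaling, no low-count filter, no block, other matching or thresholds, removal of doublets or of cells richest in somatic transcripts, and leaving out each library. Removal of shared barcodes was added after seeing the data. R 4.3.3, Python 3.11.15, scipy 1.17.1, GENCODE M21 and RefSeq GRCm38.p6 promoters were used.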

Additional observations from a re-analysis of the deposited data

Results flagged for a closer look

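For 9 of 78 named genes the difference between Plaur+ and Plaur-negative cells was not the same in BU and CTRL by the edgeR test of the difference of the 2 contrasts. Over all 11088 genes tested it passed for 48 (0.433%). The named genes were chosen largely by their BU difference, which enters this test, so the 2 shares are not comparable. The BU difference minus the CTRL difference was, on the log2 scale, -1.45 for Stra8 (edgeR adjusted p = 0.00272), -1.31 for Tet3 (0.00294), -0.74 for Crabp1 (0.0438), -1.99 for Upp1 (2.67e-06) and 1.64 for Mki67 (3.39e-12). For Stra8 the Plaur+ and Plaur-negative levels were 42.9 and 155 CPM in CTRL 1 but 32.9 and 26.4 in CTRL 2, so the sign differed between the CTRL libraries. For Mki67 they were 42.9 and 37.1 CPM in CTRL 1, nearly level (log2 ratio 0.20), but 87.1 and 241 in CTRL 2 (log2 ratio -1.46). The spermatid genes Prm2, Smcp, Prm1 and Tnp1 differed by -1.2, -1.72, -1.14 and -1.34. The CTRL side of each value rests on 18 and 25 Plaur+ cells, and only 1 gene passed this test among all genes without CTRL 2.

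Outside the gate, a Plaur UMI was found in 3.33% of late germ cells of BU 2 (4 of 120), in 1.10% of Kit-high cells of BU 1 (1 of 91) and in 2.5% of Kit-high cells of BU 2 (1 of 40), against 0 of 113 late germ cells (up to 2.65%) and 0 of 9 Kit-high cells in CTRL 2. A count of 0 of 9 allows up to 33.3%, so no difference from CTRL was detectable for Kit-high cells, and the intervals of late germ cells overlapped. Among cells with neither Ddx4 nor Dazl a Plaur UMI was found in 1 of 95 in CTRL 2 (1.05%) and 0 of 86 in BU 2. The latter allows up to 3.49%, so no direction is shown. Whether these UMIs came from the cells or from free RNA was not tested.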

How the results depend on the processing

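Genes called in BU (1862) numbered 0 with no replicate block, 166 with DESeq2, 180 with sums thinned to 5000 UMIs, 458 at 2 or more Plaur UMIs, 1058 matched on Gfra1 and 1038 without shared barcodes, and 176 to 2273 leaving out each library. In the thinned sums Plaur+ was called again after thinning and all other cells were used without matched numbers, so several choices changed at once, and the 2-UMI sums hold fewer cells; the causes were not tested. CTRL calls (140) numbered 0 with no replicate block, 18 with DESeq2, 85 unfiltered, 255 unmatched, 82 thinned, 263 without doublets, 288 under 10% mitochondrial UMIs and 378 without shared barcodes, and 1 to 163 leaving out each library. The difference (48) numbered 0 with no replicate block, 3 with DESeq2, 138 without doublets, 181 under 10% mitochondrial UMIs, 27 at 2 or more UMIs, 24 matched on Gfra1 and 161 matched on the cell cycle, and 1 to 75 leaving out each library. Of the 24 largest rises and falls all lost their call without the block, 4 thinned, 3 without BU 2, 1 with DESeq2 and 1 without shared barcodes, and none changed sign in any alternative that tested it. Share differences (Plaur+ minus Plaur-negative, percentage points) moved at full depth to 29.5 for Eomes (11.6), -5.62 for Neurog3 (-1.54), -18.6 for Sox3 (-11.4), -15.3 for Rarg (-4.13), 3.09 for Mki67 (9.01), -0.187 for Top2a (12) and 7.40 for Epcam (12.1). With Plaur+ called after thinning they were 7.41 for Eomes, -2.19 for Mki67 and -0.175 for Top2a. At 2 or more UMIs they were -21.6 for Stra8 (-16.3), 13.3 for Mki67, 14.8 for Top2a and -0.0503 for Igf2 (6.48). Without shared barcodes they were -9.87 for Sox3 and 10.2 for Top2a. Top2a gave 12.1 without doublets and 12.2 under 10% mitochondrial UMIs. Leaving out each BU library gave -3.19 to 0.109 for Neurog3 and -0.329 to 13.3 for Igf2. Log2 folds that changed sign were Plat at -0.068 (no replicate block), -0.044 (Gfra1-matched), -0.064 (cycle-matched), -0.11 (shared barcodes removed) and -0.30 to 0.19 (leaving out each BU library), Igf2 at -0.14 (2 UMIs), Mki67 at -0.045 and Plk1 at -0.064 (thinned), Ccng1 at -1.11 to 0.024 (leaving out each BU library), Prm2 at 0.95 (2 UMIs) and 0.21 (shared barcodes removed), Smcp at 0.85 (2 UMIs) and 0.076 (cells richest in somatic transcripts removed), Prm1 at 0.52 and Tnp1 at 0.53 (2 UMIs). Clu, 0.97, was -0.95 unmatched, -0.72 thinned, -0.034 in another draw, -0.18 without doublets, -0.088 under 10% mitochondrial UMIs, -0.14 at 2 UMIs and -0.43 matched on Gfra1.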

Other observations

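Of 9 genes within 100000 bases of Plaur, a window chosen after values were seen, 6 were tested and 2 were higher in Plaur+ BU cells, where 9.36% of all genes tested were. Cadm4, a cell adhesion molecule, starts 6055 bases after the end of Plaur on the same strand and had a log2 fold of 1.41 ± 0.16 (edgeR adjusted p = 1.88e-15). Kcnn4, a calcium-activated potassium channel, ends 75794 bases before Plaur (chr7:24370263-24386690) and stood at 7.36 and 0.916 CPM in BU 1 and 4.08 and 0.849 in BU 2 (log2 fold 2.38 ± 0.46, edgeR adjusted p = 8.94e-06), a call lost without BU 1, without BU 2 and without shared barcodes (edgeR adjusted p = 0.522, 0.762 and 0.0808). Smg9, Irgc1, Zfp428 and Xrcc1 lie in the same window and did not pass.

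Igf2 set the experiments apart more than the Plaur classes. It stood at 104 and 79.2 CPM in Plaur+ and Plaur-negative cells of BU 1 and at 2.12 and 2.08 in BU 2, and edgeR did not call it (log2 fold 0.33 ± 0.19, adjusted p = 0.253).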
